A study of Mus musculus with 20 samples.

Results

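Kidney and liver were compared in mice that had received no drug, to describe what sets the transcriptomes of these organs apart gene by gene. The comparison used the 4 vehicle kidney libraries and the 4 vehicle liver libraries, 8 of the 20 bulk RNA-seq libraries of a study of the BET bromodomain inhibitor JQ1, chosen by their labels and by no measured value. Of 54778 gene symbols in the deposited files, 16099 had enough reads to be tested. All 8 libraries came from male mice of the inbred strain DBA/2J that were injected intraperitoneally with vehicle every day for 3 weeks, on the schedule used for JQ1. In each organ, 3 libraries (vehicle, treatment) came from mice of 10 weeks at the end of dosing, and 1 library (vehicle, recovery) came from a mouse of 16 weeks, 6 weeks after the last dose. Per the study's methods the vehicle was DMSO diluted in an aqueous cyclodextrin solution, so every animal carried that solvent and the repeated injections. The other 12 libraries, 6 per organ, came from mice given JQ1 at 50 mg/kg and were used only to look at the organ difference a second time. Whether the organs of 1 mouse gave libraries of the same title is not stated in the labels, so all were treated as separate samples, and p-values measure the spread between these samples.

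The kidney filters plasma through the podocyte slit of the glomerulus and then takes back salt, glucose, amino acids and water along a tubule whose segments each carry their own transporters. The liver, built largely of hepatocytes, releases most plasma proteins, makes bile acids and urea, and modifies foreign compounds. Both are epithelia that depend on the hepatocyte nuclear factors HNF1 and HNF4 and both can make glucose, which makes them a useful pair in which to ask which genes are particular to an organ and which are held in common.

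Library totals ran from 13952510 to 21446467 reads in kidney and from 13591647 to 17529910 reads in liver. Levels are given as CPM, reads scaled to library size after TMM scaling, in the order treatment 1, 2 and 3, then recovery, and differences as log2 kidney minus liver with the standard error of the edgeR fit. Log2 levels correlated at r = 0.98 to 0.99 between kidney libraries, at 0.97 between liver libraries and at 0.61 to 0.64 between organs. Mitochondrially encoded genes took 24.6 ± 1.27% of kidney reads and 16.7 ± 1.22% of liver reads (SD, n = 4 each). The kidney recovery library held some abundant hepatocyte transcripts, though not all, at higher levels than the other 3 kidney libraries. Alb, which encodes serum albumin, was at 28.4 unscaled CPM there and at 3.97 to 5.52 in the others, or 0.0706% against at most 0.0137% of its liver level. Over 50 liver genes the median level was 0.182% of that in liver in this library and 0.147 to 0.164% in the other 3 vehicle kidneys, and Fabp1 was lowest in this library, at 5.34 CPM against 10.4 to 22.3 CPM. Fitted without it, 5260 genes were higher in kidney and 4834 in liver, and of 537 listed or named genes 53 moved by over 1.5-fold and 0 called genes reversed.

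Of the 16099 genes, 5361 were higher in kidney (33.3%) and 5023 were higher in liver (31.2%) at an adjusted p below 0.05 in edgeR's quasi-likelihood test. Scaled by library totals alone the split was 11201 higher in kidney and 2033 higher in liver. With 64.5% of all genes called, a call alone says little about organ identity, so the stricter test against a 2-fold difference (edgeR's TREAT) was used to name organ-enriched genes. By that test 2603 genes were enriched in kidney (16.2%) and 1946 in liver (12.1%). A fitted difference of at least 10-fold was reached by 1243 kidney genes (7.72%) and 811 liver genes (5.04%), and of at least 100-fold by 499 (3.1%) and 383 (2.38%), or 5.48% of all genes together. Where the lower organ had 0 reads the fitted fold depends on the prior count, and with such genes set to the lowest fold that 3 reads over the 4 libraries would give, the counts were 1238 and 811 at 10-fold and 271 and 352 at 100-fold. Among the enriched genes, 328 kidney genes had no read in any liver library and 93 liver genes had none in any kidney library.

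Organ-enriched genes took a far larger share of reads in liver than in kidney. The 1946 liver-enriched genes took 50.0 ± 1.69% of liver reads and 4.89 ± 0.229% of kidney reads, whereas the 2603 kidney-enriched genes took 17.0 ± 0.896% of kidney reads and 1.18 ± 0.0417% of liver reads (SD, n = 4). The ranges do not overlap, at 48.2 to 52.2% in the 4 liver libraries for their own genes and 15.8 to 18.0% in the 4 kidney libraries for theirs. On the deposited TPM scale the same shares were 65.4 ± 2.58% in liver and 15.0 ± 0.887% in kidney. Most of that gap between the scales sits in transcripts of effective length under 100 bases, which held 45.5 to 51.4% of the TPM but 3.55 to 4.87% of the reads of the liver libraries, and without those transcripts the shares of TPM were 48.8 ± 1.79% and 13.9 ± 1.16%. The Mup genes and pseudogenes, which encode the major urinary proteins that carry pheromones, alone took 14.6 ± 1.71% of liver reads, and Alb took 4.02 ± 0.345%. Kap, the kidney androgen-regulated protein of the proximal tubule, took 1.66 ± 0.39% of kidney reads.

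**Figure D1:**
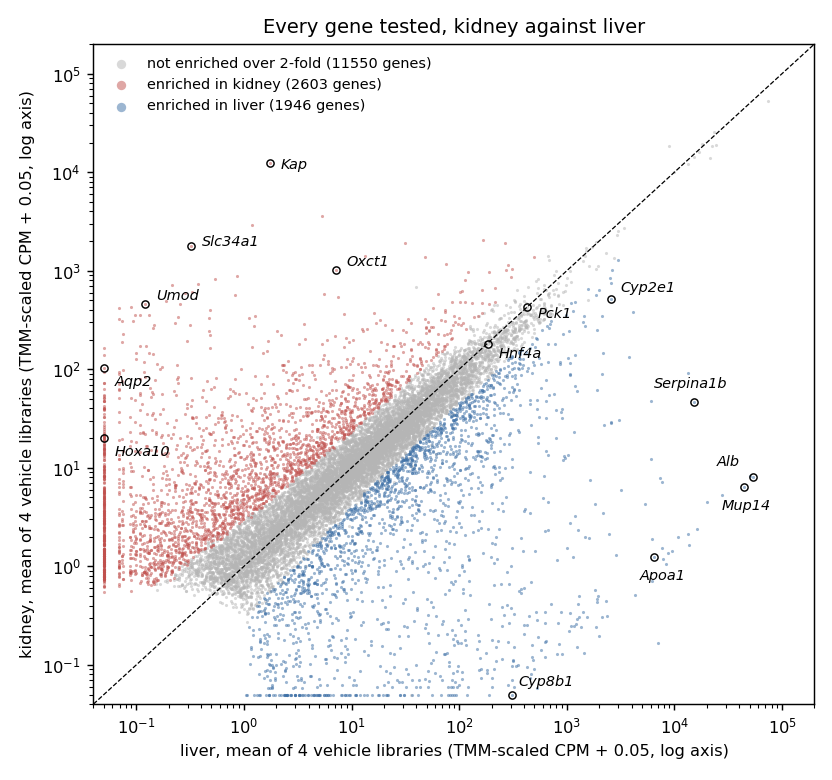
Mean level of each of the 16099 genes tested in 4 vehicle liver libraries (x axis) and 4 vehicle kidney libraries (y axis), both in TMM-scaled CPM plus 0.05 on log axes, so that genes without a read lie at 0.05. Genes enriched over 2-fold in kidney (2603, red) and in liver (1946, blue) lie away from the dashed line of equal levels, and the most abundant liver genes reach higher levels than Kap, the most abundant of the kidney-enriched genes.

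The organ labels were checked against defining markers. Of 8 kidney markers, 7 were enriched in kidney: Lrp2, Slc34a1, Umod, Slc12a1, Slc12a3, Aqp2 and Atp6v1b1. The exception was Nphs1, which encodes nephrin of the podocyte slit, at 3.22, 3.13, 2.22 and 2.13 CPM in kidney and 3.18, 1.60, 1.35 and 1.61 in liver. These values overlap and no difference was called (log2 difference 0.48 ± 0.31, edgeR adjusted p = 0.198). Without liver treatment 1, where it was highest, the difference was 0.80 (edgeR adjusted p = 0.0316), and with library totals 1.33. All hepatocyte markers, Alb, Apoa1, Ttr, Cps1, Cyp2e1 and Serpina1b, were enriched in liver. The markers other than Nphs1 did not overlap between the organs, which held for 60% of all genes tested, 31.1% with kidney and 28.8% with liver the higher.

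**Figure D2:**
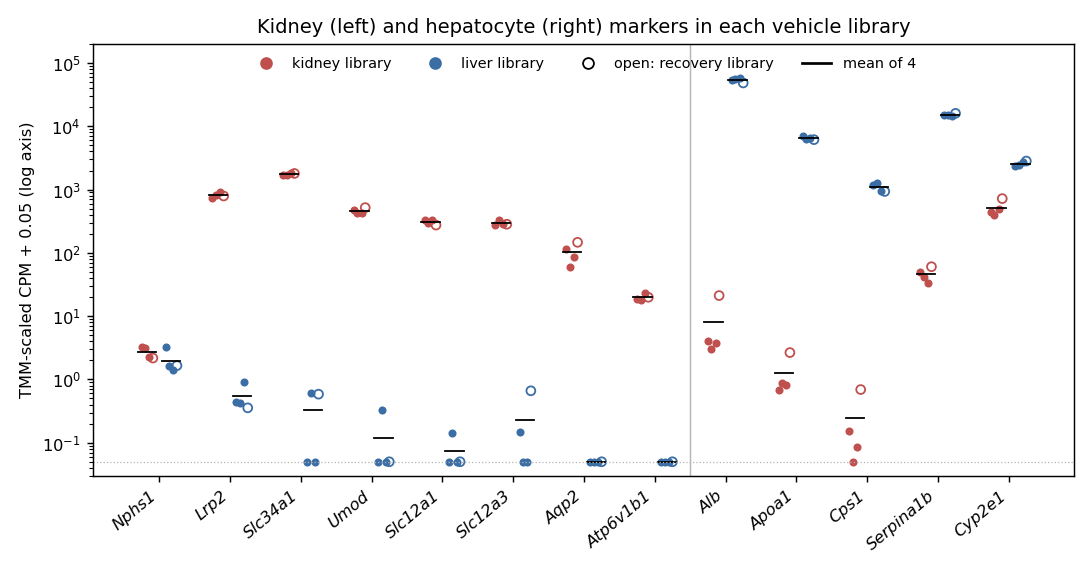
TMM-scaled CPM plus 0.05 (log axis) of 8 kidney markers and 5 hepatocyte markers in each of the 8 vehicle libraries; red points are kidney libraries, blue points liver libraries, open points the recovery libraries, black bars means of 4, and the dotted line marks 0 reads. All markers but Nphs1 separate the organs without overlap, and the open red points of Alb, Apoa1 and Cps1 lie above the other kidney libraries.

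Promoters of several abundant or strongly enriched genes are shown here as examples, and the letters marked in them were then counted over all promoters. Sequences are from RefSeq on build GRCm38.p6, written 5′ to 3′ on the strand of the gene and ending at the base before its start. Capitals mark the letters GTTAAT or, for the other strand, ATTAAC, which are 1 arm of the palindrome bound by HNF1, and TATAAA, the TATA box, looked for 20 to 40 bases before the start. Alb and Fabp1, the fatty acid binding protein of hepatocytes, stand for liver. The phosphate transporter Slc34a1, the organic anion transporter Slc22a6 and Kap stand for kidney. These examples do not show how common the HNF1 arm is. Mup14 and Apoa2 of liver and Gpx3 and S100g of kidney, also abundant, had it on neither strand in the 250 bases before the start.
Alb, chr5:90460750-90460869, plus strand: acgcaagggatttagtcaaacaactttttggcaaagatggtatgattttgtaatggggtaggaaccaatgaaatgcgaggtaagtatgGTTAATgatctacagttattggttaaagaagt
Fabp1, chr6:71199759-71199878, plus strand: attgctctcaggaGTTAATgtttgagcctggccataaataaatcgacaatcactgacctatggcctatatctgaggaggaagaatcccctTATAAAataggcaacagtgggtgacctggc
Slc34a1, chr13:55399528-55399647, plus strand: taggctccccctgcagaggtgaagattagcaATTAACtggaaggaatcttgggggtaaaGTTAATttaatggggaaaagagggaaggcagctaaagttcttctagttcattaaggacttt
Slc22a6, chr19:8617876-8617995, plus strand: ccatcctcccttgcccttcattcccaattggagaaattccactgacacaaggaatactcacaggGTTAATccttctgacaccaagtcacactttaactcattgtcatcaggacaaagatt
Kap, chr6:133853668-133853787, minus strand: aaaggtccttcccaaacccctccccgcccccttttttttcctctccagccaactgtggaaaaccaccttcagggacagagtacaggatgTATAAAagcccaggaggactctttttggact

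In these stretches the HNF1 arm began 32 bases before the start of Alb, 107 before that of Fabp1, 56 before that of Slc22a6, and at both 89 and 61 before that of Slc34a1. Fabp1 and Kap carry TATAAA, beginning 30 and 31 bases before the start. The genes shown have 1 start each in the table. The same letters were counted in the 250 bases before the start of every gene in the table, using the start listed first for the 4163 genes with several; whether it is the start used in either organ was not tested. GTTAAT on either strand was in 6.52% of all 27018 genes with a promoter and in 4.55% of the 11183 tested genes that have one. It was in 10.8% (58 of 535) of genes at least 10-fold enriched in liver, in 8.93% (74 of 829) of those at least 10-fold enriched in kidney, and in 3.75% (73 of 1946) of genes whose 95% interval lay within 0.5 log2 units of equality. The 10-letter form of the HNF1 palindrome, searched on both strands and holding the shorter arm within it, was rare, in 8 of the liver set (1.5%), 5 of the kidney set (0.603%), 1 of the genes held in common (0.0514%) and 0.322% of all tested genes. TATAAA at 20 to 40 bases was in 4.86% of the liver set, 2.77% of the kidney set and 0.668% of the genes held in common, against 1.42% of all tested genes. The median number of CG dinucleotides per 250 bases ran the other way, at 4 in the liver set, 9 in the kidney set and 18 in the genes held in common, against 15 over all tested genes. These are counts of letters that describe the sets and were not tested. The median GC content of these promoters was 51.6% in the liver set, 57.6% in the kidney set and 61.2% in the genes held in common, and its part in the counts was not tested.

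The listed genes of the proximal tubule were uniformly kidney-enriched. All 28 listed genes were enriched in kidney, with a median log2 difference of 10.82 (10.36 with genes lacking liver reads set to their lower bound) against 0.0357 over all genes tested. Their summed level was 20810 ± 2996 CPM in kidney and 180 ± 19.7 CPM in liver. Kap made up most of it, at 12520, 9799, 10810 and 16230 CPM in kidney and 0.794, 3.87, 0.237 and 1.84 CPM in liver. The organs did not overlap (log2 difference 12.86 ± 0.60, edgeR TREAT adjusted p = 9.37e-06), and without liver treatment 2, which had the highest liver level, the difference was 13.62. Slc34a1, which recovers phosphate from the filtrate, was at 1724, 1712, 1815 and 1799 CPM in kidney and 0, 0.566, 0 and 0.535 CPM in liver. Lrp2, the endocytic receptor megalin, was at 749.6, 834, 904 and 792 CPM in kidney and stayed at 0.87 CPM or less in every liver library. Neither gene overlapped between the organs, with 13 and 23 reads over all 4 liver libraries.

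Transporters of the apical and basolateral membranes were as sharply divided. Slc22a6, the organic anion transporter OAT1, had 395 to 482 CPM in kidney and 1 read in liver, a ratio of 19680 with an exact counting interval of 3532 to 777300. Slc22a12, which carries urate, was at 343 to 373 CPM in kidney and at 0 to 0.229 CPM in liver. The sodium-glucose transporter Slc5a2 of the early proximal tubule was at 119 to 134 CPM in kidney with 2 reads in liver, and Slc5a1, its counterpart of the later segment, was at 40.1 to 51.7 CPM with 0.554 to 1.32 CPM in liver (5.43 ± 0.23). The amino acid carriers Slc7a9 and Slc6a19 were at 43.9 to 58.0 and 68.8 to 114 CPM in kidney, the first with no read in liver (at least 789-fold) and the second with 1. Their partner Slc3a1, the heavy chain of the cystine transporter, was shared to a greater extent, at 107, 97.4, 116 and 125 CPM in kidney and 41.4, 40.4, 41.9 and 56.4 CPM in liver (1.30 ± 0.11, edgeR TREAT adjusted p = 0.00657). The water channel Aqp1 (2.23 ± 0.11) and the scaffold Pdzk1 (3.29 ± 0.08) were likewise enriched in kidney but present in liver at 59.8 to 75.8 and 31.0 to 34.4 CPM.

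Later nephron segments were marked by genes with almost no liver reads. All 11 genes of the loop of Henle were enriched in kidney, with a summed level of 1421 ± 48.7 CPM against 1.5 ± 0.41 CPM in liver. Umod, which encodes the urinary protein uromodulin, was at 479, 427, 421 and 519 CPM in kidney, and 3 reads in 1 liver library were its only trace in liver. Slc12a1, the target of loop diuretics, was at 275 to 330 CPM with 1 liver read, and Egf, which is made in the distal nephron, was at 306 to 367 CPM against 0.712 to 1.51 CPM (8.30 ± 0.19). All 12 genes of the distal and connecting tubule were enriched too, with 1752 ± 85.6 against 158 ± 10.7 CPM. Slc12a3, the thiazide-sensitive transporter, was at 274 to 333 CPM, and Calb1, the calcium-binding calbindin, was at 157, 156, 190.1 and 149 CPM with no liver read, at least 2521-fold higher. Most of the liver signal of this list came from the kinase Wnk1, which was at 125 to 149.7 CPM in liver and 320.4 to 354 CPM in kidney (1.29 ± 0.08).

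In the collecting duct the 9 tested principal cell genes were enriched, Elf5 having too few reads to be tested. Aqp2, the vasopressin-regulated water channel, varied among kidney libraries at 115, 59.97, 87.1 and 147 CPM, and with no read in liver was at least 1579-fold higher. Aqp3 was steadier, at 51.1 to 57.6 CPM, also without a liver read (at least 819-fold). Of the epithelial sodium channel, Scnn1b (at least 91.1-fold) and Scnn1g (at least 119-fold) had no liver read, while the alpha subunit Scnn1a was at 7.67 to 10.1 CPM in liver and 20.9 to 23.8 in kidney (1.26 ± 0.12, edgeR TREAT adjusted p = 0.0219, lost in 1 of the 8 fits that leave out a library). Among intercalated cell genes, 10 of 11 were enriched, with 362 ± 24.2 against 18.0 ± 0.893 CPM. They included the proton pump subunits Atp6v0a4, at 159 to 185 CPM with 3 liver reads, and Atp6v1g3, at 54.0 to 69.1 CPM with none (at least 970-fold), and the ammonia channel Rhcg (at least 217-fold). Its relative Rhbg was not enriched, at 17.8 to 21.6 CPM in kidney and 13.4 to 14.6 CPM in liver (0.46 ± 0.11). Over the whole V-ATPase family, 11 of 21 tested Atp6v genes were enriched in kidney, 0 in liver and 10 in neither, and 1 was called higher in liver. Of 33 potassium channel genes, 19 (57.6%) were enriched in kidney and 2 in liver, against 16.2% and 12.1% of all genes.

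The glomerulus gave a weaker picture. Of 12 podocyte and glomerular genes, 8 were enriched in kidney and 1 in liver, and the summed level was 178 ± 10.7 CPM against 70.6 ± 13.3 CPM in liver. Podxl, the podocyte surface sialomucin that vessels also make, was at 51.5, 43.6, 58.7 and 45.6 CPM against 4.07, 4.05, 3.95 and 6.42 CPM (3.42 ± 0.16). Nphs1 and Plce1 were not enriched, and Wt1, at 3.16 to 5.06 CPM in kidney and 0.153 to 1.70 CPM in liver, was enriched in 6 of 8 fits without a library. In bulk RNA, fewer cells of a type and less RNA of a gene per cell cannot be told apart.

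**Figure D3:**
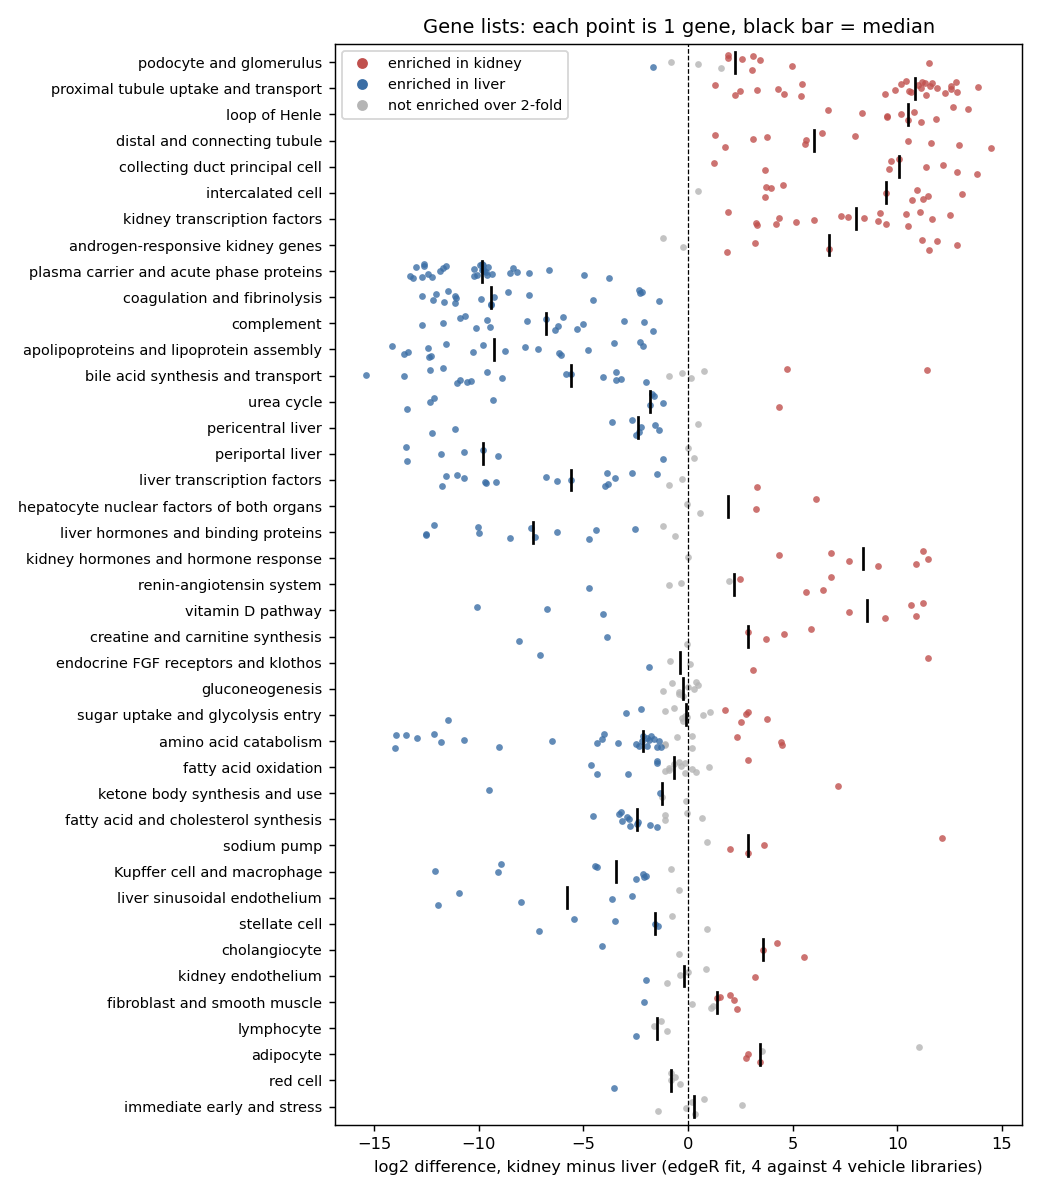
Log2 difference between kidney and liver (x axis, edgeR fit, 4 against 4 vehicle libraries) of every tested gene in each list of at least 4 tested genes; each point is 1 gene, red for enriched in kidney, blue for enriched in liver, grey for neither, with the median as a black bar. Nephron lists lie to the right and secretory liver lists to the left, whereas the median of gluconeogenesis lies near 0 and that of fatty acid oxidation at −0.66; the position of genes without reads in 1 organ depends on the prior count.

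Over the 9 kidney lists, 105 of 113 tested genes (92.9%) were enriched in kidney, against 16.2% of all genes, and 103 of them remained so in all 8 fits that leave out 1 library. Over the 10 liver lists, 150 of 164 tested genes (91.5%) were enriched in liver, against 12.1% of all genes, and 149 remained so. The lists were written from textbook knowledge of both organs, with earlier results of these data known, and the fits without 1 library reuse the same data. High shares were thus built into the lists, so these shares describe the lists and are no test of organ identity. The genes enriched against the direction of their list were few, 1 among the kidney lists and 4 among the liver lists, the latter including Slc51a, Slc51b and Arg2.

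Secreted plasma proteins were liver-enriched without exception among the listed genes. All 31 plasma carrier and acute phase genes, all 19 coagulation genes, all 17 complement genes and all 18 genes of lipoproteins were enriched in liver, with median log2 differences of −9.86, −9.43, −6.81 and −9.28. Their summed levels in liver were 153100 ± 4418, 22660 ± 3079, 8602 ± 1248 and 41030 ± 528 CPM, and in kidney 204 ± 30.3, 287 ± 31.7, 310 ± 27.5 and 210.4 ± 9.18 CPM. Alb was at 53160, 56900, 57150 and 48440 CPM in liver and at 4.06, 3.03, 3.78 and 21.1 CPM in kidney (−12.71 ± 0.67, edgeR TREAT adjusted p = 8.80e-05). Without the kidney recovery library, where it was highest, the difference was −13.84. Apoa1, the main protein of high-density lipoprotein, was at 6156 to 6966 CPM in liver and at 0.633, 0.818, 0.763 and 2.61 CPM in kidney (−12.36 ± 0.41, or −13.06 without the recovery library). Transferrin, Trf, did not depend on that library, at 7082 to 7611 CPM in liver and 6.87 to 8.83 CPM in kidney (−9.86 ± 0.09). The vitamin D carrier Gc behaved alike, at 7379 to 8144 against 5.70 to 8.44 CPM (−10.08 ± 0.12).

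Some members of these lists were also read in kidney at levels above that of Alb. The complement proteases Cfb (−2.09 ± 0.10) and C2 (−1.66 ± 0.11) were at 166 to 219 and 13.4 to 16.5 CPM in kidney. Protein C, Proc, an anticoagulant, was at 70.2, 61.0, 59.1 and 91.6 CPM in kidney and at 331.5, 330.1, 362 and 349 CPM in liver (−2.28 ± 0.12). The factor XIII subunit F13b came nearest to the kidney, at 31.1 to 44.2 CPM against 97.3 to 107 CPM (−1.41 ± 0.10, edgeR TREAT adjusted p = 0.000287). Ceruloplasmin, Cp, was at 54.2 to 68.9 CPM against 1758 to 2043 CPM (−4.96 ± 0.09). None of these ranges overlapped.

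The Mup genes were all but limited to liver, with all 16 tested members enriched in liver and a summed level of 189800 ± 27190 CPM against 31.1 ± 49.3 CPM in kidney. Mup copies are nearly identical, so reads may be split between them and single values are uncertain. Mup14 was at 45010, 39120, 43560 and 48460 CPM in liver and at 1.58, 1.68, 1.21 and 20.9 CPM in kidney, a difference of −12.74, or −14.84 without the kidney recovery library. As a share of reads the whole family took 0.0141% of the kidney recovery library and at most 0.00104% of the other kidney libraries. Enzymes of detoxification were less exclusive. Of 66 cytochrome P450 genes, 42 (63.6%) were enriched in liver and 10 (15.2%) in kidney, against 12.1% and 16.2% of all genes. The kidney share was thus close to that of all genes. Of 20 glutathione S-transferases, 15 (75%) were enriched in liver and 2 (10%) in kidney. Gstp1 was at 4435, 2931, 3948 and 3915 CPM in liver and 129, 121, 136 and 141 CPM in kidney (−4.85 ± 0.11). Cyp2e1, which oxidises ethanol and many solvents, was at 2325, 2448, 2718 and 2824 CPM in liver and 437.5, 403, 501 and 720.3 CPM in kidney (−2.32 ± 0.16). Among the kidney-enriched P450 genes, Cyp4b1 was at 1331, 1439, 1133 and 1805 CPM against 11.2 to 16.6 CPM in liver (6.74 ± 0.15). Cyp2j13 was at 110 to 207 CPM with 2 liver reads.

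Bile acid genes divided along the path of the molecule. Of 23, 17 were enriched in liver, 2 in kidney and 4 in neither. The sterol hydroxylases Cyp7a1, which is rate-limiting, and Cyp8b1 had no kidney read, against 60.5 to 112 and 262 to 345 CPM in liver, at least 2695-fold and at least 9555-fold higher. The hepatocyte uptake carrier Slc10a1 was at 223 to 378 CPM in liver and 0.139 to 0.642 CPM in kidney (−9.60 ± 0.45). Its ileal and renal relative Slc10a2 was higher in kidney, at 87.6, 72.1, 103 and 95.9 CPM against 45.0, 38.4, 61.1 and 69.2 CPM (0.75 ± 0.19, edgeR adjusted p = 0.00727), and was not enriched by TREAT. The basolateral exporter made of Slc51a and Slc51b was enriched in kidney, at 17.7 to 24.1 CPM with no liver read (at least 304-fold) and at 18.5 to 21.4 against 0.566 to 0.917 CPM (4.71 ± 0.22). The receptor Nr1h4 (FXR) was present at 37.7 to 53.9 CPM in kidney and 46.2 to 56.9 CPM in liver, overlapping values with a difference of −0.28 ± 0.11 that turns positive when libraries are scaled by their totals.

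Transcription factors divided between the organs as well. All 18 kidney factors were enriched in kidney, with 439 ± 18.8 against 12.3 ± 0.752 CPM. Pax2 and Pax8, which are required to form the kidney, were at 19.8 to 27.6 and 43.1 to 56.1 CPM in kidney with 5 and 14 liver reads. Lhx1 was at 19.2, 26.3, 27.6 and 17.3 CPM with no liver read (at least 350-fold), and Pou3f3, a factor of the distal nephron, was at 36.8 to 47.1 CPM, again with none (at least 650-fold). Of 19 liver factors, 16 were enriched in liver. Foxa2 and Foxa3, the pioneer factors of endoderm, were at 47.8 to 66.2 and 15.8 to 30.7 CPM in liver with 6 and 3 kidney reads, and Cebpa was at 151 to 181 CPM in liver and 8.65 to 13.4 CPM in kidney (−3.99 ± 0.11). Of 9 genes listed as androgen-responsive in mouse kidney, 7 were enriched in kidney, among them Kap and the polyamine enzyme Odc1, at 639, 364, 444 and 851 CPM against 58.1 to 67.5 CPM (3.19 ± 0.27). The steroid carrier Slco1a1 was higher in liver, at 387 to 539 CPM against 141 to 321 CPM (−1.19 ± 0.29), was not enriched by TREAT, and lost its call with library totals (−0.34, edgeR adjusted p = 0.320).

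The nuclear receptor Hnf4a, which both epithelia need, was not divided in this way. It was at 173, 172.5, 169.7 and 206 CPM in kidney and 171.5, 192, 170 and 203.5 CPM in liver. The 8 values overlap throughout, and the difference was −0.03 ± 0.09 (edgeR adjusted p = 0.761). With library totals it was 0.81 and called higher in kidney (edgeR adjusted p = 6.49e-07), against a median of 0.88 over all genes on that scale. Its relative Hnf4g was enriched in kidney, at 4.13 to 5.58 CPM with 3 liver reads.

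The Hox genes, which record the position of a tissue along the body, had the highest share of kidney-enriched members of the families counted. Of 39 Hox genes, 28 had enough reads to be tested, and 27 of the 28 (96.4%) were enriched in kidney, with 465 ± 13.1 CPM in sum against 11.2 ± 1.95 CPM in liver. The 27 were enriched in all 8 fits without a library. Levels in kidney were highest for Hoxa7, at 66.2, 63.2, 72.1 and 82.3 CPM with 1 liver read, and Hoxd8, at 59.3, 55.7, 62.1 and 63.5 CPM with 9 liver reads. Hoxa10 was at 19.6, 19.96, 20.1 and 19.9 CPM with no liver read (at least 308-fold), Hoxc10 at 12.6 to 17.1 CPM (at least 228-fold) and Hoxd10 at 4.52 to 5.33 CPM (at least 76.4-fold). Paralogs 12 and 13 were without reads in both organs. What liver had of the family came mostly from paralogs 3 to 5: Hoxb4 was at 4.66, 3.30, 2.69 and 1.22 CPM (3.10 ± 0.26) and Hoxa5 at 1.39, 1.79, 3.72 and 2.14 CPM (3.69 ± 0.23). The exception among the 28 was Hoxa4, at 0.624 to 1.25 CPM in kidney and 0.189 to 1.42 CPM in liver (0.59, edgeR adjusted p = 0.375, or 1.56 with adjusted p = 0.0288 without liver treatment 3).

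**Figure D4:**
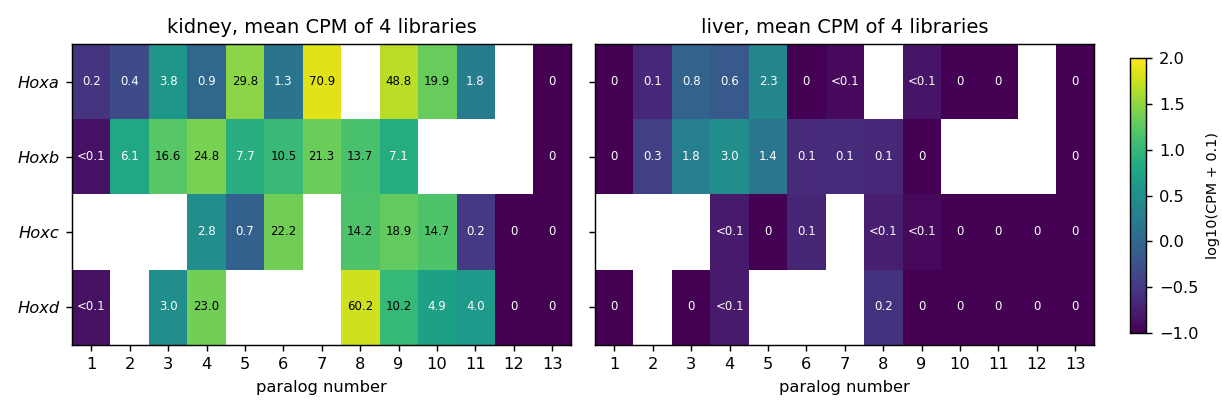
Mean TMM-scaled CPM of the 39 Hox genes in 4 vehicle kidney libraries (left) and 4 vehicle liver libraries (right), arranged by cluster (rows) and paralog number (columns), with colour as log10 of CPM plus 0.1; blank cells have no gene. Kidney reads run from paralog 2 to paralog 11 with the highest values at Hoxa7 (70.9) and Hoxd8 (60.2), whereas liver reads sit mainly at paralogs 3 to 5, the highest being Hoxb4 (3.0).

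Pathways that are known to pass a molecule from organ to organ showed steps on each side. In the vitamin D pathway 5 of 8 genes were enriched in kidney and 3 in liver. The 25-hydroxylase Cyp2r1, at 5.56 to 10.8 CPM with 7 kidney reads, and the carrier Gc were enriched in liver. The 1-alpha-hydroxylase Cyp27b1, at 1.53, 1.54, 1.73 and 1.00 CPM with no liver read (at least 22.5-fold), the 24-hydroxylase Cyp24a1, at 9.70 to 18.0 CPM (at least 210.5-fold), and the receptor Vdr, at 165 to 184 CPM with 3 liver reads, were enriched in kidney. Creatine synthesis split likewise. Gatm, which makes guanidinoacetate, was at 193, 256, 215 and 174 CPM in kidney and 6.65, 7.54, 10.7 and 10.3 CPM in liver (4.56 ± 0.16), and Gamt, which methylates it, at 6.80, 9.43, 8.98 and 8.91 CPM in kidney and 125, 134, 120.4 and 127 CPM in liver (−3.88 ± 0.10). Neither enzyme overlapped between the organs.

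In the renin-angiotensin system the substrate Agt was enriched in liver, at 246 to 280.3 against 8.67 to 11.1 CPM (−4.72 ± 0.09). The protease renin, Ren1, was at 51.8, 47.2, 51.7 and 39.0 CPM in kidney and 0.397, 0.0943, 1.03 and 0.0764 CPM in liver, and the converting enzyme Ace was at 18.4 to 28.4 CPM in kidney with 20 liver reads. Both were enriched in kidney, whereas the receptor Agtr1a was higher in liver without passing TREAT (−0.92 ± 0.12), a call that was lost with library totals (−0.07, edgeR adjusted p = 0.607). Of 5 genes of ketone body synthesis and use, 2 were enriched in liver and 1 in kidney. Oxct1, which lets a tissue burn ketones, was at 1069, 918, 1023 and 1066 CPM in kidney and 6.15, 7.45, 8.86 and 5.73 CPM in liver (7.17 ± 0.12, edgeR TREAT adjusted p = 2.55e-16). The co-receptors of endocrine FGFs followed, with Kl at 239 to 269.8 CPM in kidney and 4 liver reads, and Klb at 9.33 to 19.4 CPM in liver and 10 kidney reads.

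The urea cycle was complete in liver and partial in kidney. Cps1 and Otc, its mitochondrial entry, were at 935 to 1292 and 310.4 to 323 CPM in liver with 19 and 6 kidney reads, and without the kidney recovery library their fitted differences moved from −12.35 to −14.36 and from −12.12 to −13.78. The cytosolic steps Ass1 and Asl, which also serve arginine synthesis in the proximal tubule, were at 229.8 to 285.5 and 46.4 to 59.5 CPM in kidney against 480.1 to 659 and 163 to 194 CPM in liver (−1.21 ± 0.10 and −1.80 ± 0.09). Arg1 was at 1276, 1235, 1364 and 1074 CPM in liver with 10 kidney reads, and Arg2, the mitochondrial arginase, was at 2.80, 2.07, 2.05 and 2.41 CPM in kidney with 5 liver reads. Amino acid breakdown as a whole leaned to liver, with 25 of 33 genes enriched there and 3 in kidney, among them the methionine adenosyltransferase Mat2a (2.35 ± 0.09) and the D-amino acid oxidase Dao (4.47 ± 0.12).

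None of the 9 genes of glucose production was enriched in either organ by TREAT, with 3 called higher in kidney and 4 in liver at an adjusted p below 0.05. Of all genes tested, 28.3% were enriched in 1 of the organs, and 33.3% and 31.2% were called higher in kidney and in liver. Most genes are thus not enriched, and a list of 9 is too small to set this one apart. With library totals 6 of the 9 were called higher in kidney and 0 in liver, and 3 were enriched in kidney. Of all 16099 genes, that scale called 11201 higher in kidney and 2033 in liver, with 5313 and 1187 enriched. Pck1, which sets the rate of the pathway, was at 403, 321, 498.5 and 489 CPM in kidney and 505, 329, 483 and 393 CPM in liver, a difference of 0.00 ± 0.17 (edgeR adjusted p = 0.9945). G6pc overlapped as well, at 193 to 253 against 175 to 475 CPM (−0.45 ± 0.33), and Fbp1 was slightly lower in kidney, at 264 to 312 against 360.0 to 428 CPM (−0.45 ± 0.08, edgeR adjusted p = 0.000144). With library totals in place of TMM the 3 differences were 0.86, 0.40 and 0.40, so the direction for genes this close depends on the scaling. Fatty acid oxidation leaned to liver, with 9 of 17 genes called higher there and 4 in kidney, 5 and 1 enriched, and a median of −0.66. Its summed levels were 3964 to 4265 CPM in liver and 1833 to 1995 CPM in kidney. With library totals 7 genes were called higher in kidney and 6 in liver, and 3 were enriched in each. The median was then 0.19, below the 0.88 of all genes on that scale. The thiolase Acaa2 stood out, at 35.1, 28.3, 38.3 and 25.2 CPM in kidney and 664, 628.5, 625 and 663 CPM in liver (−4.35 ± 0.11).

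Scaling mattered most for the large housekeeping families. With library totals the median of all genes moved from 0.0357 to 0.88. With TMM, 33.3% of all genes were called higher in kidney and 31.2% in liver, and 16.2% and 12.1% were enriched. Of 97 ribosomal protein genes, 90 were called higher in liver, with a median of −0.62. With library totals 58 were called higher in kidney and 4 in liver, with a median of 0.23, which is below that of all genes on either scale. None of 15 mitochondrially encoded genes was enriched in either organ (median −0.16, or 0.69 with library totals). Of 90 nuclear genes of oxidative phosphorylation, 4 were enriched in kidney and 1 in liver, or 13 and 0 with library totals. The sodium pump, which drives tubular transport, was an exception among general functions: 4 of its 5 tested genes were enriched in kidney and none in liver. Its beta subunit Atp1b1 was at 1964 to 2098 against 138 to 182 CPM (3.62 ± 0.09), and its renal regulator Fxyd2 at 697 to 775 CPM with 7 liver reads.

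Related genes often exchanged places between the organs. In 6 of the 14 pairs described, 1 gene was enriched in liver and the other in kidney: Arg1 and Arg2, Pklr and Pkm, Mat1a and Mat2a, Klb and Kl, Slc1a2 and Slc1a1, and Aqp9 and Aqp1. The pyruvate kinases overlapped in neither gene, with Pklr at 23.7, 30.7, 24.4 and 15.0 CPM in liver and 3.64, 3.56, 2.98 and 2.01 CPM in kidney (−2.95 ± 0.23) and Pkm at 68.6, 61.6, 71.2 and 67.0 CPM in kidney and 6.95, 10.3, 9.57 and 9.78 CPM in liver (2.87 ± 0.11).

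The other pairs did not divide in that way. Acsm1 was nearly equal (−0.21 ± 0.09, or 0.64 with library totals), while Acsm2 was at 3488, 3462, 3448 and 3911 CPM in kidney and 5.36, 6.41, 4.67 and 4.59 CPM in liver (9.42 ± 0.11). The glucose carriers Slc2a2 (−1.11 ± 0.15) and Slc2a1 (1.03 ± 0.13) pointed to opposite organs and were not enriched by TREAT, and with library totals the call of Slc2a2 was lost (−0.27, edgeR adjusted p = 0.114). Agxt and Agxt2 were both enriched in liver, as were Bhmt and Bhmt2.

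**Figure D5:**
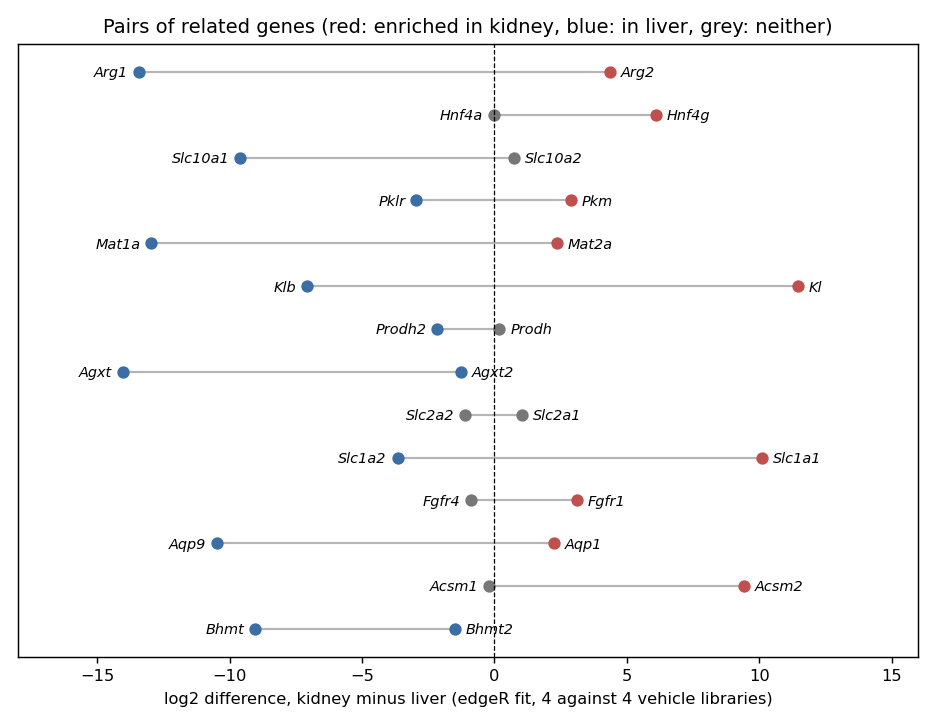
Log2 difference between kidney and liver (x axis, edgeR fit, 4 against 4 vehicle libraries) of both genes in 14 pairs of related genes, 1 pair per row joined by a line; red points are enriched in kidney, blue in liver, grey in neither. In 6 pairs the line joins a blue point to a red one; for Slc1a1 and Agxt the lower organ had at most 3 reads and the position depends on the prior count.

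Genes of other cell types differed between the organs as well. Of 10 tested Kupffer cell and macrophage genes, 9 were enriched in liver, against 12.1% of all genes. Summed levels of the list were 205 to 337.5 CPM in liver and 35.7 to 48.1 CPM in kidney. Clec4f, which marks Kupffer cells, had no kidney read and 24.7 to 39.1 CPM in liver (at least 964-fold). Genes that mark macrophages in general were closer, with C1qa at 3.71 to 5.001 against 12.4 to 21.4 CPM (−2.10 ± 0.17) and Csf1r not enriched (−0.80 ± 0.12, or 0.06 with library totals and 0.35 with length-scaled counts). Of 6 tested genes of liver sinusoidal endothelium, 5 were enriched in liver, against 12.1% of all genes. Among them Clec4g and Oit3 had no kidney read (at least 881-fold and 437-fold). The exception was Stab2, at −0.43, which was called higher in kidney with library totals (0.41). The general endothelial gene Pecam1 overlapped, at 55.9 to 66.7 CPM in kidney and 56.0 to 69.2 CPM in liver (−0.01 ± 0.09, edgeR adjusted p = 0.924). With library totals its difference was 0.84 and called higher in kidney (edgeR adjusted p = 6.28e-07), against a median of 0.88 over all genes on that scale. Of 5 tested adipocyte genes, 3 were enriched in kidney, against 16.2% of all genes. Adipocyte genes were uneven between kidney libraries, with summed levels of 90.7 to 274 CPM in kidney and 12.3 to 32.9 CPM in liver. Fabp4 was at 116, 94.8, 221 and 79.4 CPM in kidney and 15.2, 27.4, 11.9 and 16.7 CPM in liver (2.85 ± 0.43, edgeR TREAT adjusted p = 0.00578). Ucp1, which defines brown fat, was at 20.5, 11.3, 23.9 and 3.09 CPM in kidney with no liver read, and at an edgeR TREAT adjusted p of 0.0574 was not called enriched. Without kidney treatment 1 or 2 its difference also missed the quasi-likelihood threshold (edgeR adjusted p = 0.0583 and 0.0689). Its part in the other kidney values was not tested. Of the listed genes of adrenal cortex, exocrine pancreas, urothelium and skeletal muscle, 1 of 7, 1 of 6, 2 of 4 and 1 of 6 had enough reads to be tested, and Cyp11b1, Cyp11b2 and Prss2 were at 0 in all 8 libraries.

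Organ-enriched genes varied slightly more among libraries of their organ than genes that were not enriched. Among genes of at least 10 CPM, the median coefficient of variation was 9.56% for 1192 kidney-enriched genes against 7.55% for 5686 others in kidney, and 11% for 1399 liver-enriched genes against 9.81% for 5660 others in liver. In kidney the most variable enriched genes above 100 CPM were Dnase1 (52.8%), at 199.5, 161, 275 and 494 CPM, Fabp4 (50.0%) and Odc1 (37.8%). In liver they were the acute phase genes Saa2 (138%), at 269, 9.33, 1616 and 225 CPM, and Saa1 (97.4%), at 528, 63.2, 2120 and 905 CPM. Liver treatment 2 was lowest for both serum amyloid genes and liver treatment 3 highest. Without kidney treatment 3 the difference of Saa2 missed the threshold (edgeR adjusted p = 0.0662).

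The organ difference was then looked at in the 12 JQ1 libraries, which share no sample with the vehicle comparison. Of the genes enriched in vehicle that could be tested again, 1604 of 2397 kidney genes (66.9%) and 1555 of 1828 liver genes (85.1%) were enriched in the same organ, against 10.8% and 10.6% of all genes in that fit. Of the JQ1 livers, recovery 2 and 3 held kidney transcripts. Over the 39 kidney-enriched genes of the proximal tubule and loop of Henle lists, the median level was 36.3% and 12.8% of that in vehicle kidney. Kap was at 3540 and 2140 unscaled CPM in these 2 livers, against 0.171 to 3.02 in the 4 vehicle livers. Without these libraries 2292 of 2553 kidney genes (89.8%) and 1711 of 1881 liver genes (91%) were enriched again, against 16.6% and 11.8% of all genes, and the direction was kept by 2553 of 2553 and 1879 of 1881. The median difference of the kidney genes was then 3.13, against 3.15 in vehicle for the same genes, and that of the liver genes −2.72, against −2.68.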

How the data were processed

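Kidney and liver RNA of vehicle mice was measured by bulk RNA-seq. Per the labels and methods, the authors trimmed reads with fastp 0.20.1 and quantified transcripts with Salmon 1.10.0, and deposited for each library 147833 transcripts with estimated counts of reads (not whole numbers) and TPM. Here the estimated counts were summed per gene symbol and rounded. Genes passing edgeR's filter (at least 10 counts in a library of typical size and 15 in all) were fitted in edgeR 4.0.16 (TMM, robust quasi-likelihood) in R 4.3.3, and TREAT tested a 2-fold difference, with Benjamini-Hochberg adjustment over all genes. With 0 reads in an organ, a lower bound was set by 3 counts over its 4 libraries, and ratios with 1 to 3 reads carry an exact counting interval; both cover counting error only. The deposited TPM was used for shares, with transcripts of effective length under 100 bases as a separate scale. Named genes were the most abundant and most different enriched genes, genes with intervals within 0.5, paired genes, Hox genes and leading list members; further list members were chosen after their values were seen. The lists were chosen with earlier results of these data known. Group sizes and recovery time followed the labels, from which a supplementary legend of the study differs. Some listed genes are not reported here. Promoters came from a RefSeq table on GRCm38.p6. Alternatives were other scalings, filters, counts, tools and samples.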

Additional observations from a re-analysis of the deposited data

Results flagged for a closer look

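Over 155 sets of 4 libraries with a mean of at least 10 CPM among the genes named above, 9 had a library far from the other 3 by Dixon's criterion at the 95% level, which chance gives for about 1 set in 20. In kidney the recovery library was the distant library for Acsm2 (3911 CPM), Cfb (218.8), Fxyd2 (774.6), Hnf4a (205.7) and Slc22a6 (481.7), and treatment 2 for Aqp3 (57.57). In liver the recovery library was distant for Rhbg (13.38) and Slc3a1 (56.41), and treatment 3 for Saa2 (1616). Outside the vehicle comparison, Kap was at 3540 unscaled CPM in JQ1 recovery liver 2 and at 2140 in JQ1 recovery liver 3, far above the vehicle livers at 0.171 to 3.02.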

How the results depend on the processing

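Library totals in place of TMM gave 11201 genes higher in kidney and 2033 in liver, and 5313 and 1187 enriched, and turned Acsm1 (0.64), Csf1r (0.0591), Fbp1 (0.40), G6pc (0.40), Hnf4a (0.81), Nr1h4 (0.57), Pecam1 (0.84) and Plce1 (0.0417) to kidney. Of these, Acsm1, Fbp1, Hnf4a, Nr1h4 and Pecam1 were then called higher in kidney, and Csf1r, G6pc and Plce1 were not called. Length-scaled TPM counts turned Csf1r (0.35) and Pck1 (−0.0708). Genes near 0 also changed sign elsewhere without a call: Hnf4a was 0.00977 without a low-count filter; Pck1 was −0.00581 with the 1 CPM filter, −0.00525 with all 20 libraries and −0.0913 in 10-week libraries; and Pecam1 was 0.0175 with RLE, 0.00949 without mitochondrially encoded genes, 0.0178 with DESeq2 and 0.0306 without a filter. Without 1 library Hnf4a ran from −0.0826 to 0.0155, Pck1 from −0.110 to 0.145 and Pecam1 from −0.0541 to 0.0530, none of them called. Without 1 library the counts were 5165 to 5402 higher in kidney, 4696 to 4993 in liver, 2565 to 2719 and 1919 to 1970 enriched, and 104 to 105 and 149 to 151 list genes. Of 2412 alternative values of 127 named genes, 2350 kept direction and call. With the direction kept, 27 lost a call and 5 gained one. The other 30 reversed in sign, and these include values that gained a call with the other sign. The share of TPM in enriched genes was 7.13% in kidney and 61.7% in liver for genes of at least 10-fold. By 2 scales added after seeing the data it was 17.0% and 50.0% of reads, and 13.9% and 48.8% of TPM without short transcripts. With JQ1 recovery libraries alone 178 kidney genes were enriched again, and the cause was not tested; these include the livers with kidney transcripts, whose removal was also chosen after seeing the data. The replicate block gave 5231 and 4933 calls, 2539 and 1934 enriched genes, and changed no call among named genes. Libraries of the same title correlated at 0.131 (recovery), 0.051, −0.0176 and −0.0035 (treatment 1 to 3) in their deviations, and the recovery pair at 0.365 over genes of at least 10 CPM. The numbers were not used as pairs because not every pair passed 0.1, which does not show whether the organs came from the same mice. Depth limits genes with few reads in an organ, for which a bound, a ratio or levels are given.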
